A study of Arabidopsis thaliana with 3 samples.

Results

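YUC4 and YUC6 are genes of the YUCCA family of Arabidopsis thaliana, and their transcripts were followed during the first hour in which seedlings were given auxin. Both members were chosen by name, through the locus codes AT5G11320 (YUC4) and AT5G25620 (YUC6). No rule on their values was used, but earlier results of these data were known. They are 2 of the 12127 named genes with a value on all arrays, and of 21859 features when unnamed probes are counted. Each gene had 1 probe, and both lie on chromosome 5.

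The treated seedlings received the auxin indole-3-acetic acid (IAA) at 10 µM in 0.1% ethanol, and the control seedlings received 0.1% ethanol alone. All were whole seedlings of ecotype Col-0, 4 days old and raised in the dark on sucrose medium, and pairs of treated and control seedlings were frozen after 20, 40 or 60 minutes. Each time was measured on 1 array with 2 channels, ethanol RNA in channel 1 and IAA RNA in channel 2, so that no time has a replicate and no test can be made at a single time. Seedlings of a dish were harvested together, so each RNA pools many seedlings with all their organs, and fewer cells of a type and less RNA per cell cannot be told apart. A ratio between channels gives no level of a transcript, so neither the abundance of YUC4 and YUC6 in these seedlings nor the tissue label could be checked.

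YUCCA proteins are flavin-containing monooxygenases. They carry out the last step of the main route of auxin synthesis, in which aminotransferases of the TAA1 family turn tryptophan into indole-3-pyruvate and YUCCA enzymes turn that into IAA. YUC4 is known chiefly from the margins and tips of young organs and from flower and embryo development, where it acts redundantly with other YUCCA genes, and YUC6 from stamens, pollen and vegetative growth. IAA is removed again by other enzymes, among them the GH3 family, which join it to amino acids. The question the arrays put to YUC4 and YUC6 is whether transcripts of enzymes that make IAA changed in seedlings that were given IAA.

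The values are log2 ratios of the 2 channels as deposited. The labels do not name the numerator. A positive value is likely to mean more transcript in IAA than in ethanol, since the labels put IAA in channel 2 and since GH3.1, GH3.3, GH3.4 and WES1, auxin-conjugating enzymes well known to be induced by auxin, were positive at all 3 times. The robust SD over all probes was 0.165 on the 20-minute array, 0.221 on the 40-minute array and 0.110 on the 60-minute array, and each ratio was rounded to 2 decimals, which near a ratio of 1 is a step of 0.0144 on the log2 scale.

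YUC4 and YUC6 stayed close to a ratio of 1 throughout the hour. YUC4 had a ratio of 1.17 at 20 minutes, 1.07 at 40 minutes and 0.85 at 60 minutes, which are log2 ratios of 0.23, 0.10 and -0.23. YUC6 had a ratio of 1.11 at 20 minutes, 0.95 at 40 minutes and 0.88 at 60 minutes, or log2 ratios of 0.15, -0.07 and -0.18. Both were thus highest at 20 minutes, lower at 40 minutes and lowest at 60 minutes, and both were positive at the first time and negative at the last.

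**Figure D1:**
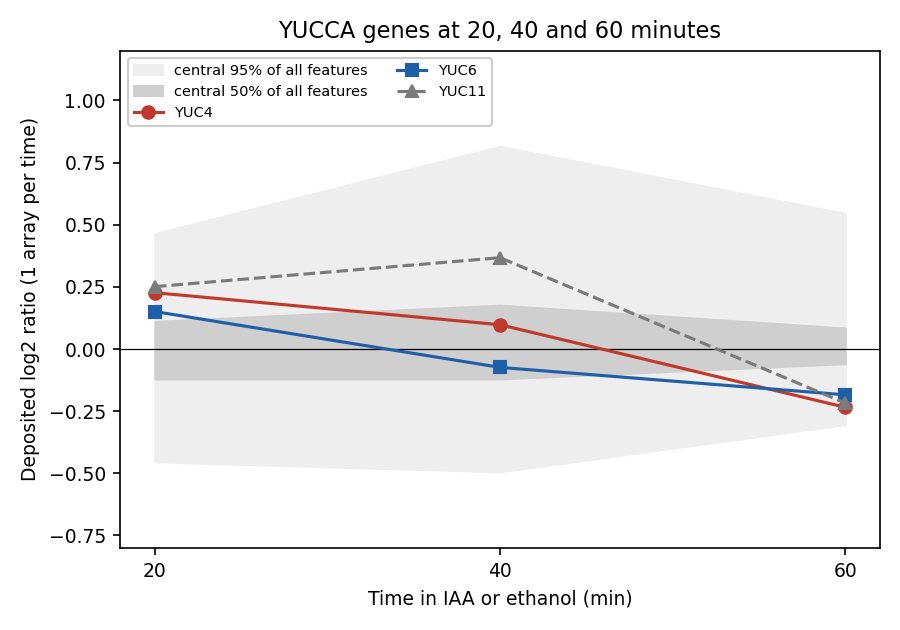
Deposited log2 ratio (vertical axis) of YUC4, YUC6 and YUC11 against time in minutes, 1 array per time and no error bars because there are no replicates; the dark and light bands hold the central 50% and 95% of all 21859 features. YUC4 and YUC6 go down at each step, from 0.23 and 0.15 at 20 minutes to -0.23 and -0.18 at 60 minutes, and all points lie inside the light band.

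Neither gene reached a 1.5-fold ratio at any time. Of all features, 1.40% had a positive and 1.25% a negative ratio of at least 1.5-fold at 20 minutes. These shares were 5.40% and 1.39% at 40 minutes, and 2.16% and 0.339% at 60 minutes. For at least 2-fold the positive and negative shares were 0.270% and 0.270% at 20 minutes, 1.22% and 0.142% at 40 minutes, and 0.448% and 0.0137% at 60 minutes. The members' count of 0 of 2 is close to this background.

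Within each array the members held different places. At 20 minutes 11.3% of features were at or above YUC4 and 19.8% at or above YUC6, so that both were in the upper part of the array. At 40 minutes both were near the middle, with 36.9% of features at or above YUC4 and 33.7% at or below YUC6. At 60 minutes they were in the lower part, with 5.05% of features at or below YUC4 and 7.74% at or below YUC6. The 60-minute array had the narrowest spread, where YUC4 stood at -2.14 robust SDs from the median and YUC6 at -1.68. With 1 array per time these places have no replicate check.

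**Figure D2:**
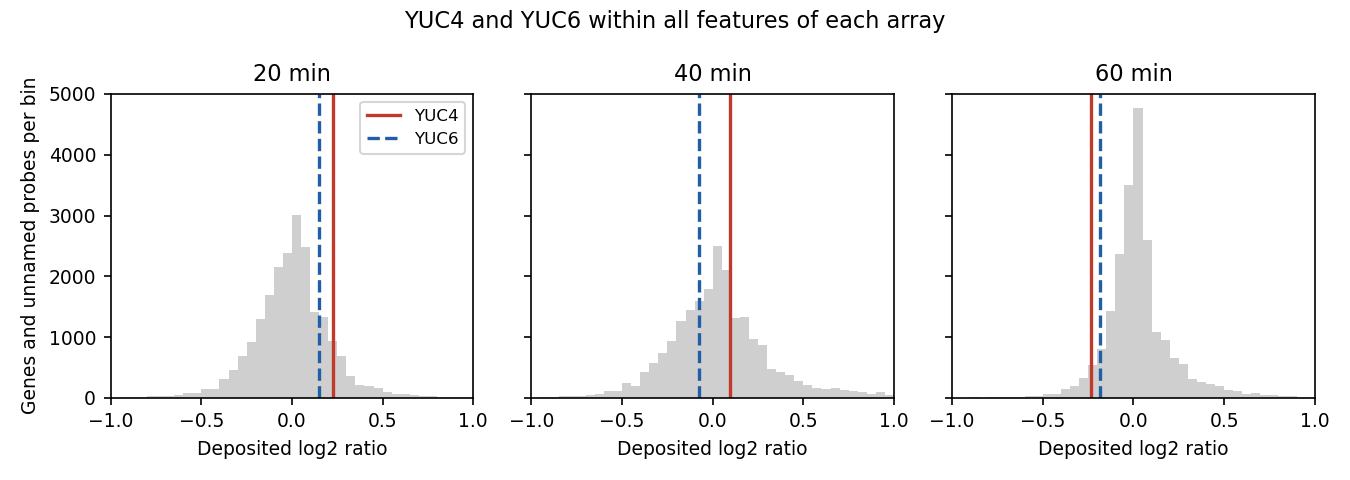
Number of genes and unnamed probes (vertical axis) in bins of 0.05 of the deposited log2 ratio (horizontal axis, shown between -1 and 1) on each array; vertical lines mark YUC4 (solid) and YUC6 (dashed), and 118, 297 and 101 features at 20, 40 and 60 minutes lie outside the range shown. The lines stand right of the middle at 20 minutes, on either side of it at 40 minutes and in the left flank at 60 minutes.

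On these arrays the difference between the first and last time was larger in YUC4 than in YUC6, though with no test. The 60-minute log2 ratio minus the 20-minute one was -0.46 for YUC4, with 3.75% of features at or below that difference, and -0.33 for YUC6, with 7.91% at or below. For YUC4 most of this lay between 40 and 60 minutes (a difference of -0.33, against -0.13 between 20 and 40 minutes). For YUC6 more of it lay between 20 and 40 minutes (-0.22, against -0.11 between 40 and 60 minutes), but with the arrays scaled to one spread both steps were alike (-0.217 and -0.212). A course like theirs was not rare: 7.08% of all features, 1547 in number, went lower at each step with a positive value at 20 minutes and a negative one at 60 minutes.

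The members lay close to each other at each time. On the log2 scale YUC4 minus YUC6 gave 0.08 on the 20-minute array, 0.17 on the 40-minute array and -0.05 on the 60-minute array, each less than the robust SD of its array. YUC4 had the higher log2 ratio of the pair at 20 and 40 minutes and YUC6 at 60 minutes. Ratios compare each gene with itself, so this order says nothing of which transcript was more abundant.

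The mean over the 3 times asks whether either transcript differed between the IAA and ethanol seedlings over the whole hour. The mean log2 ratio of YUC4 was 0.03 ± 0.24 (SD over 3 time points), with a limma 95% interval of -0.26 to 0.32, which is a ratio between 0.835 and 1.25. That of YUC6 was -0.04 ± 0.17, with an interval of -0.28 to 0.21, or a ratio between 0.823 and 1.16. Neither passed the test (limma, Benjamini-Hochberg adjusted p = 1.00 for both; unadjusted p = 0.801 for YUC4 and 0.721 for YUC6), where 0.0869% of all features passed with a positive mean and 0% with a negative one. At an unadjusted p under 0.05 limma gave 769 features with a positive and 231 with a negative mean, of 21859. Together they are less than a 0.05 share of all features, the share this cut would give if no feature differed. The counts are thus no excess. The spread in this test is that between times, drawn by limma toward that of all features. The intervals thus do not rest on each gene's own 3 values alone. A ratio that turns within the hour, as in both genes, still widens the interval. The sign of YUC4's mean turned to -0.02 when the arrays were scaled to one spread, and also without the 20-minute array (-0.07) or the 40-minute array (-0.004). The sign of YUC6's mean turned to 0.04 without the 60-minute array, so neither mean has a settled side.

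Of the 11 genes of the family, YUC11 (AT1G21430, chromosome 1) was the other one measured under a name. It had log2 ratios of 0.25 at 20 minutes, 0.37 at 40 minutes and -0.22 at 60 minutes, with 5.80% of features at or below it at 60 minutes. YUC11 was thus also positive at 20 minutes and negative at 60 minutes, while at 40 minutes it stood above both YUC4 and YUC6. Among all features 21.9% were positive at 20 minutes and negative at 60 minutes. The probe sequences were not used here, and how far each probe separates one YUCCA transcript from another was not tested.

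The rest of the pathway was read from 9 lists with 95 locus codes. In 3 lists (other indole and IAA routes, IAA conjugate hydrolases, other flavin monooxygenases) no gene was measured under a name. The pathway was thus covered in part only, and 22 of the 95 codes were measured under a name. RefSeq gave a symbol for 15 of these and a locus code alone for 7. The list of IAA conjugation and oxidation genes was the one with more than 3 such symbols, 8 in all. Of these 8, positive ratios of at least 1.5-fold numbered 3, 4 and 4 at 20, 40 and 60 minutes, with 0 negative ones, and their median log2 ratios were 0.43, 0.47 and 1.08. At 60 minutes no gene lay near that median, with 4 at 1.82 or above and 4 at 0.33 or below. Over all 10 measured genes of the list, 2 of them known by locus code alone, the medians were 0.37, 0.31 and 0.25. The medians of all features were 0, 0.01 and 0, to 2 decimals, at the same times. The list holds GH3.1, GH3.3, GH3.4 and WES1, which also served above to read the sign of the ratios. Their positive side is therefore no separate result.

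Among the conjugating enzymes GH3.3 had log2 ratios of 2.0, 2.47 and 4.02 at 20, 40 and 60 minutes, higher at each step. YUC4 and YUC6 went lower at each step but stayed within 1.5-fold, and the contrast was not tested. GH3.1 had 2.45, 2.85 and 3.54, and passed the test of the mean (limma adjusted p = 0.0443). GH3.4 had 0.52, 1.97 and 3.32, and WES1 (GH3.5) had 0.77, 0.61 and 1.82. GH3.1 was the 1 measured gene of its list that passed, and GH3.3 did not pass (limma adjusted p = 0.371). GH3.9 (0.11, 0.32 and 0.33) and GH3.17 (0.34, -0.18 and 0.15) lay within 1.5-fold at each time, as YUC4 and YUC6 did. So did the glucosyltransferase genes UGT84B1 (-0.14, 0.28 and 0.15) and UGT74D1 (-0.07, 0.30 and 0.01), whose enzymes attach glucose to auxins.

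PIF7, SHI and SPL, transcription factor genes known to act on YUCCA expression, were measured too. PIF7, a light-signalling factor that activates YUCCA genes in shade, had log2 ratios of 0.32 at 20 minutes, 0.56 at 40 minutes and -0.60 at 60 minutes. At 60 minutes it was beyond 1.5-fold on the negative side, and 0.339% of features were at or below it. Its mean of 0.09 ± 0.61 (SD over 3 time points) did not pass (limma adjusted p = 1.00). SHI, of the family whose member STY1 activates YUC4, had 0.06, 0.28 and -0.01. SPL (SPOROCYTELESS, which restrains auxin synthesis genes in the ovule and stamen) had -0.03, -0.01 and 0.26. SHI and SPL were within 1.5-fold at each time, and SHI at 60 minutes and SPL at 40 minutes were 1 rounding step from 0. WAG2, a protein kinase gene that controls auxin efflux carriers, had 1.19, 1.56 and 1.46 and passed the test of the mean (limma adjusted p = 0.0442). The calls of GH3.1 and WAG2 were lost with the arrays scaled and when any 1 array was left out, where 0 features passed, and also when named genes alone were fitted.

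**Figure D3:**
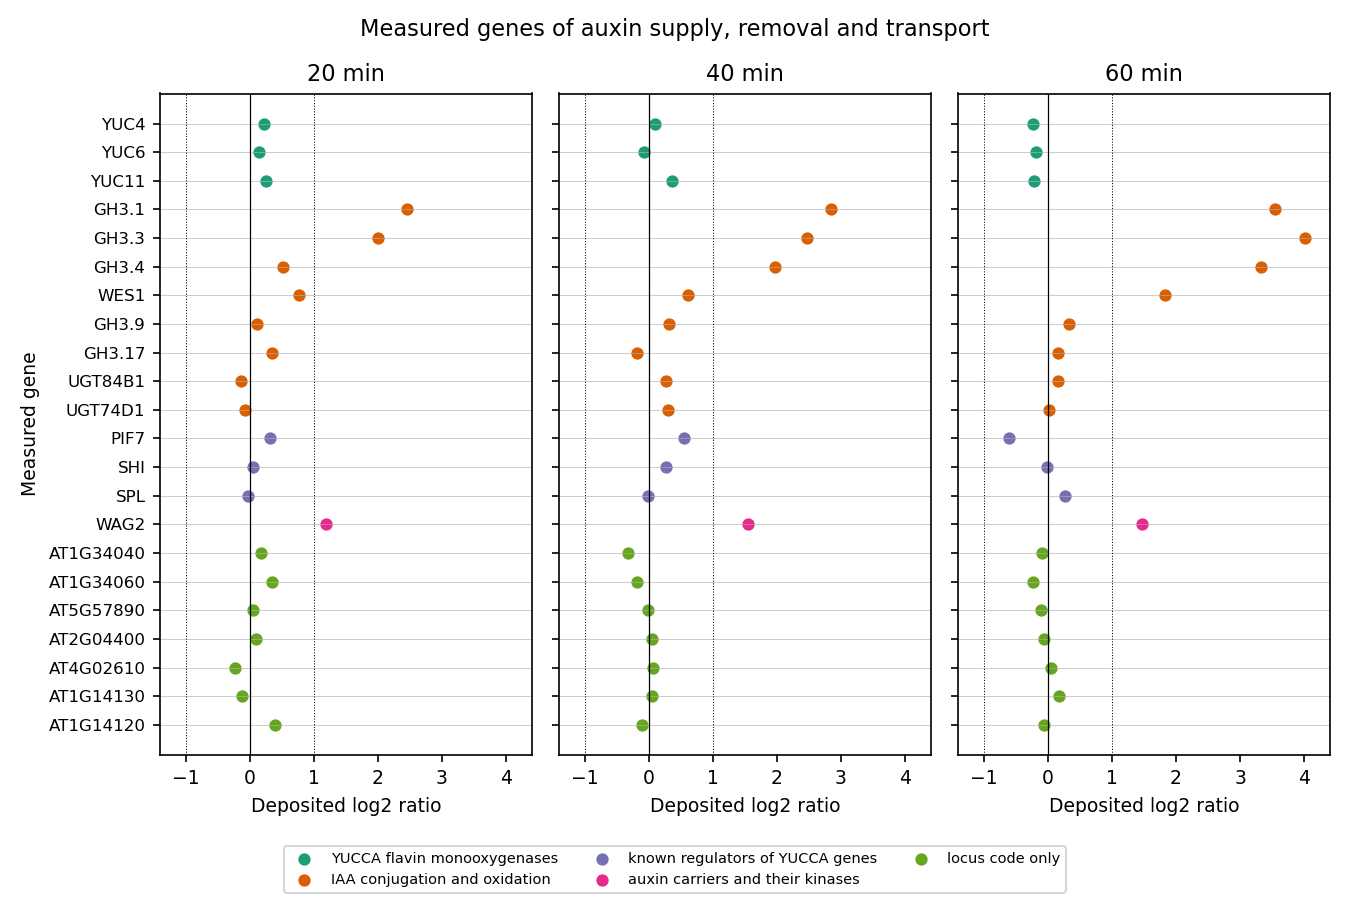
Deposited log2 ratio (horizontal axis) of the 22 listed genes with a value (rows) on the 20-, 40- and 60-minute arrays, 1 point per gene and array. Points are coloured by list, except that the 7 genes with a locus code alone share a colour of their own. Dotted lines mark 2-fold on either side. YUC4, YUC6 and YUC11 stay between the dotted lines on all arrays, while GH3.1, GH3.3 and WAG2 lie beyond the right one on all 3.

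The 7 genes with a locus code alone are given as values, with no name or role. Their log2 ratios ran between -0.23 and 0.39 at 20 minutes, -0.32 and 0.07 at 40 minutes, and -0.23 and 0.18 at 60 minutes. AT1G34060 had 0.36, -0.18 and -0.23, and AT1G34040 had 0.18, -0.32 and -0.09. AT1G14120 had 0.39, -0.10 and -0.06, and AT5G57890 had 0.06, -0.01 and -0.10. AT2G04400 had 0.10, 0.04 and -0.06, AT4G02610 had -0.23, 0.07 and 0.04, and AT1G14130 had -0.12, 0.04 and 0.18. All 7 stayed within 1.5-fold at each time, as YUC4 and YUC6 did.

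The named genes with values closest to YUC4, by Euclidean distance over the 3 log2 ratios, were AT5G59660, AT4G19510 and AT4G39190. Their distances were 0.0344, 0.0402 and 0.0526. Closest to YUC6 were AT2G18670 and AT4G36820, tied at 0.0131, and AT3G23880 at 0.0151. YUC4 and YUC6 were 0.194 apart, and 228 named genes (1.88%), YUC6 included, were at that distance of YUC4 or nearer. From YUC6, 992 named genes (8.18%), YUC4 included, were. Near a ratio of 1 many genes share almost the same values, so these names describe likeness over 3 arrays and nothing more.

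Genes beside YUC4 and YUC6 on chromosome 5 were looked up after the members' values were seen, in the gene order of RefSeq's TAIR10.1 annotation. The 2 nearest measured genes on each side of each member were taken, 8 in all. At 20 minutes 3 were positive and 4 negative, beside 47.7% and 48.6% of all features. At 40 minutes 5 were positive and 2 negative, beside 52.5% and 44.5% of all features. At 60 minutes their log2 ratios lay between -0.04 and 0.28, and 7 were positive, beside 49.8% of all features. Several of these 7 lay near 0, with 0.01 for AT5G11280, AT5G11330 and AT5G25630 and 0.03 for AT5G11290. The count at 60 minutes thus marks no clear difference from all features, and it was not tested. AT5G11330, the nearest measured gene after YUC4, had -0.07, 0 and 0.01, and AT5G25630, the nearest after YUC6, had -0.03, 0.01 and 0.01.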

How the data were processed

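The deposited table held log2 ratios of the 2 channels for 21939 probes on 3 arrays. The base was read from the values: 2 raised to each deposited value was a whole hundredth for 100% of values, within 1e-05. The sources used here do not name the numerator, the dyes, the background correction or the normalization. Gene names came from GEO's annotation of the platform and, through Entrez identifiers, from RefSeq (TAIR10.1): 12195 had 1 gene, 1 had several and 9743 are unnamed here; 12142 of the 12195 matched RefSeq. Probes of 1 gene were averaged, and features needed a value on all arrays. Spot intensities were not analysed here, so whether the YUC4 and YUC6 spots stood above background was not checked. Precision is also limited by how few arrays there are.

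The mean over times was set against 0 in an intercept model (limma 3.58.1, R 4.3.3, empirical Bayes, two-sided, Benjamini-Hochberg over 21859 features, threshold 0.05). The test was first run on simulated data, with shifts constant over the times and larger than any log2 ratio of YUC4 or YUC6. That run says nothing of changes as small as theirs or of ratios that turn within the hour. The p-values of the test rest on the spread between 3 time points, which limma draws toward that of all features, and on no replicates. The alternatives were scaling or centring the arrays, array weights, named genes only and leaving out each array. Members and lists were chosen with earlier results of these data known. The rule for named genes took YUC4 and YUC6, the measured list genes and the 3 nearest genes by distance.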

Additional observations from a re-analysis of the deposited data

Results flagged for a closer look

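YUC4, YUC6 and YUC11 stood on opposite sides of 0 at a pair of times, flagged at any log2 ratio beyond 0.001 from 0. Other listed genes were flagged only beyond each array's robust SD at both times, which held for 3. Their smaller changes of side are left out. By that stricter rule YUC6 would not be flagged, with 0.15 at 20 minutes and -0.07 at 40 minutes, within robust SDs of 0.165 and 0.221. Among all features 21.9% were positive at 20 minutes and negative at 60 minutes. With 1 array per time these differences were not tested. In YUC4 the log2 ratio at 60 minutes minus that at 20 minutes was -0.46, and minus that at 40 minutes it was -0.33. In YUC6 the ratio at 60 minutes minus that at 20 minutes was -0.33, and that at 40 minutes minus that at 20 minutes was -0.22. In YUC11 the ratio at 60 minutes minus that at 20 minutes was -0.47, and minus that at 40 minutes it was -0.58. In PIF7 the same differences were -0.92 and -1.16, with 0.357% and 0.517% of features at or below them. AT1G34060 had -0.59 for 60 minus 20 minutes, and AT1G34040 had -0.50 for 40 minus 20 minutes.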

How the results depend on the processing

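No paired analysis was possible because each time has 1 array and nothing pairs arrays across times; IAA and ethanol seedlings of a time are already paired within each ratio. Scaling the arrays to one median absolute deviation kept the side of YUC4 and YUC6 at each time and took YUC4 at 60 minutes to -0.35. It turned YUC4's mean to -0.0212 (limma adjusted p = 1.00). Array weights, highest for the 60-minute array (6.70, against 0.396 at 20 and 0.377 at 40 minutes), turned it to -0.19 (limma adjusted p = 0.119, with 0.119 to 1.00 over all alternatives). YUC6's mean was then -0.16 (limma adjusted p = 0.0991). Leaving out 1 array gave means of -0.0684 to 0.162 for YUC4 and -0.129 to 0.0383 for YUC6, and such fits have 1 residual degree of freedom. Features passing on the positive side numbered 19, against 0 with scaling, 2 among named genes only, 2057 with array weights and 0 when any 1 array was left out; on the negative side they numbered 0, against 794 with array weights. With scaling, features at or beyond 2-fold on the positive and negative sides numbered 76 and 10 at 40 minutes, against 266 and 31 unscaled, and 336 and 46 at 60 minutes, against 98 and 3. Named genes alone gave 20 and 34, 146 and 14, and 42 and 3 at the 3 times. Each member has 1 probe, so a choice between probes could not be run.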
